A study of Mus musculus with 4 samples.

Results

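The 9 genes described are the core of the Hedgehog pathway, with the ligands *Shh*, *Ihh* and *Dhh*, the receptor *Ptch1*, the ligand trap *Hhip*, the transducer *Smo* and the transcription factors *Gli1*, *Gli2* and *Gli3*. They were taken by symbol from the 52636 genes with a count, and all 9 were found and passed the filter on low counts that left 19041 genes to test. RNA was sequenced from tdTomato+ cells sorted from embryonic mouse kidneys at E12.5 to E12.75, some 48 h after tamoxifen was first given. The control embryos carried *Eya1*CreER, which produces a tamoxifen-dependent Cre from the *Eya1* locus, together with the *R26-tdTomato* reporter. The *Eya1*cKO embryos carried both of these and floxed *Eya1* (*Eya1*fl/fl), so CreER, reporter and tamoxifen were shared by the groups, and all animals were on a mixed C57BL/6J and 129/Sv background. Each group had 2 libraries of 5000 sorted cells each. Cell suspensions were combined before the sort, so *P* values measure the spread between sorted portions of cells, which may be technical.

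Hedgehog ligands are secreted proteins that bind Ptch1 and thereby release Smo from its inhibition. Smo then acts at the primary cilium, where it keeps Gli2 and Gli3 from being processed into repressors and lets full-length Gli proteins switch on targets, among them *Ptch1*, *Hhip* and *Gli1* themselves. In the developing kidney the ureteric epithelium is a known source of Shh, the surrounding stroma and smooth muscle precursors respond to it, and Gli3 repressor is needed for branching and patterning. Outside the kidney, Shh is made by the adrenal cortex and Dhh by Schwann cells and some endothelium.

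The libraries held 17457452 to 37999342 reads on genes, and the control libraries were the deeper ones. Levels are given in CPM, read counts brought to a common library total after TMM normalization, and 3 reads, taken as the limit of detection, correspond to 0.0801 to 0.171 CPM. Reads that fell on no gene were 12.9% and 13.9% of all recorded reads in the controls and 20.9% and 22.7% in *Eya1*cKO. *Eya1*, the deleted gene, had 189 and 171 CPM in control 1 and 2 and 16.7 and 12.5 CPM in *Eya1*cKO 1 and 2, so the *Eya1*cKO libraries were far below the controls. Reads on the deleted exons cannot be separated in these gene counts. The labelled tissue was kidney, and the nephron progenitor markers *Six2*, *Cited1* and *Meox1* were present in the controls at 17.8 to 248 CPM.

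Across the pathway core, *Hhip* and *Gli1* were higher and *Gli3* was lower in *Eya1*cKO, and the other 6 genes did not pass the test. The test was edgeR's quasi-likelihood test of the genotype effect over all 19041 genes with Benjamini-Hochberg adjustment, and a gene was called at an adjusted *P* under 0.05. The 3 calls among 9 genes stand beside 9.56% of all tested genes called, with 5.15% called higher and 4.41% called lower. For 6 of the 9 genes the genotypes did not overlap, which also held for 55.3% of all tested genes. Of these 6, *Shh*, *Dhh*, *Ptch1*, *Hhip* and *Gli1* were on the higher side and *Gli3* on the lower side. In bulk libraries, fewer cells of a type and less RNA per cell cannot be told apart. The median log2 change (log2 fold change, *Eya1*cKO over control) was 0.63 over the 9 genes and 0.02 over all tested genes. The median of the 9 is the value of *Ihh*, which has few reads, and it was 0.40 without control 1 and 0.25 without *Eya1*cKO 2.

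**Figure D1:**
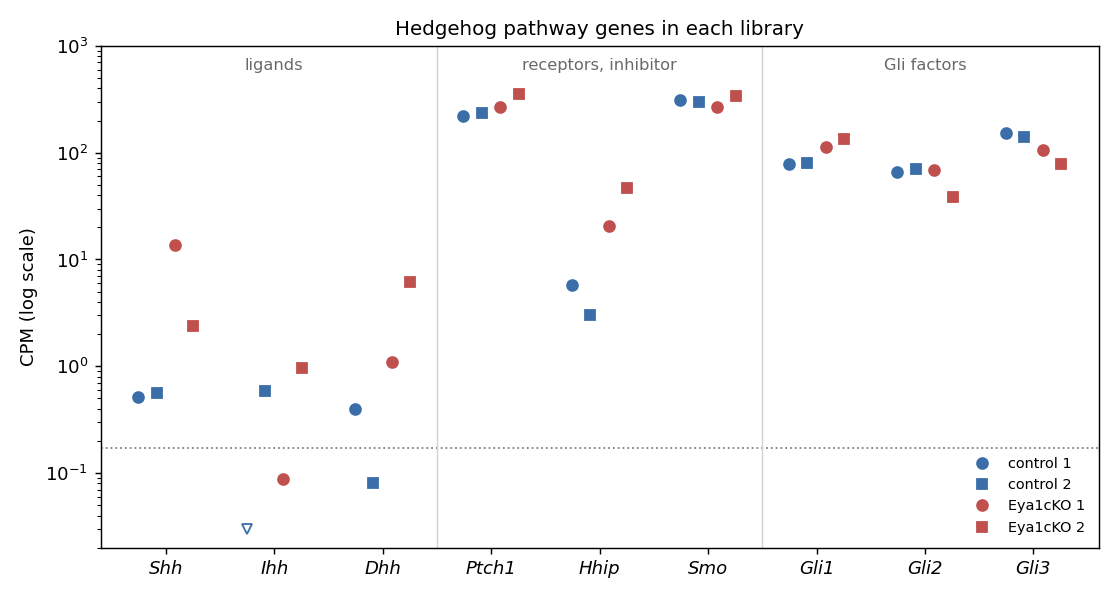
CPM on a log axis of the 9 Hedgehog pathway genes in control 1 and 2 (blue circle and square) and *Eya1*cKO 1 and 2 (red circle and square); the open triangle is a library without a read, the dotted line is the highest detection limit, 0.171 CPM, and points are to be compared within a gene since CPM are not per length. The ligands lie at or below 13.6 CPM, whereas *Ptch1*, *Smo* and the *Gli* genes lie at or above 38.3 CPM in every library.

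Several of these genes are known targets of the Gli proteins, so the stretch before the start site is shown for those the results turn on. RefSeq promoter windows of GRCm38.p6, the build the reads were mapped to, were matched by symbol for 7 of the 9 genes, and *Shh* and *Gli1* had no entry. The 250 bases before the start are printed for the called genes *Hhip* (chr8:80058009-80058258, minus strand) and *Gli3* (chr13:15463473-15463722, plus strand), for *Gli2* (chr1:119053620-119053869, minus strand) and for the pathway target *Ptch1* (chr13:63565736-63565985, minus strand), each 5′ to 3′ on the strand of its gene. Capitals mark the letters GGGTGGT, the inner part of the Gli recognition site, on either strand.

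Hhip: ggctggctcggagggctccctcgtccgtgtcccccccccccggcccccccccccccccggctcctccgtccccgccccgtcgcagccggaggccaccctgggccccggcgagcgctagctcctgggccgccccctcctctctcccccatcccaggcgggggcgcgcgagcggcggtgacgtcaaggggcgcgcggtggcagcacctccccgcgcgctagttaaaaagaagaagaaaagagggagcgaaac
Gli3: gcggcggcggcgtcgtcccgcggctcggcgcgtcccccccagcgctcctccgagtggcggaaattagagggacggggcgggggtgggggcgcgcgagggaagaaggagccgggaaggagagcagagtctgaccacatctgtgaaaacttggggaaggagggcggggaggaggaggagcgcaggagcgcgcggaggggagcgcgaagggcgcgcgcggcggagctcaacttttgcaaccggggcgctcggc
Gli2: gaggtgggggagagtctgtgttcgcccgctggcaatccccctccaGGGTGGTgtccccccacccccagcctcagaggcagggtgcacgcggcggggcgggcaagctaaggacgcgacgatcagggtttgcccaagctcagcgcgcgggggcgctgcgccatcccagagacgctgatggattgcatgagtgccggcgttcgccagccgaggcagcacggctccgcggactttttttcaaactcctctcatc
Ptch1: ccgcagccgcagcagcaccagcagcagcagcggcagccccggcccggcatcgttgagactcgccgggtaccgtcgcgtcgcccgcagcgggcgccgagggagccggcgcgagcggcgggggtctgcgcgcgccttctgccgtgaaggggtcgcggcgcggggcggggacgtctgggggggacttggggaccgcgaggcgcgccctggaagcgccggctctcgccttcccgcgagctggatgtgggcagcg

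The full site TGGGTGGTC was in none of the 7 windows of 300 bases (250 before and 50 after the start) and in 0.253% of all 32851 windows, both strands searched. The inner 7 letters, which are contained in the full site, were in 1 of the 7, that of *Gli2*, and in 4.61% of all windows. These windows are short, and no match says only that the letters are not there. All 7 were richer in G and C than the median window, at 61.7% for *Dhh* to 76.3% for *Ptch1* against 52.7%, and *Ptch1* had 47 CpG pairs against a median of 7. The *Ptch1* and *Gli3* windows lie within the annotated genes, whose first starts are farther upstream.

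In the controls the ligands were the scarcest of the 9 transcripts, also per length, and none of them passed the test. *Shh* (chromosome 5 from 28456815 to 28467256, GRCm38) was counted at 18 and 21 reads for control 1 and 2 and at 307 and 42 reads for *Eya1*cKO 1 and 2. The corresponding levels were 0.515 and 0.561 CPM, then 13.6 and 2.39 CPM. The *Eya1*cKO libraries were the higher ones, but they differed from each other 5.67-fold, and their 95% counting intervals (Clopper-Pearson), 12.1 to 15.2 CPM and 1.73 to 3.24 CPM, did not overlap. Such intervals cover counting error only, since reads copied from one molecule are not independent.

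The log2 change of *Shh* was 4.00 (standard error 1.06, 95% interval 1.52 to 6.47, adjusted *P* = 0.058 by edgeR). Without *Eya1*cKO 1 it was 2.14, and without *Eya1*cKO 2 it was 4.64. In DESeq2's Wald test, which called 14.4% of all tested genes, *Shh* passed with an adjusted *P* of 0.0013. It also passed in edgeR when at least 10 reads were required in every library (adjusted *P* = 0.03). Over the edgeR and DESeq2 alternatives that kept every library, its adjusted *P* ranged from 0.0013 to 0.11. Exons of 2 genes on the opposite strand, *9530036O11Rik* and *Gm26894*, cover 28.4% of the exonic length of *Shh*, and the strand setting of the counting is not given in the sources used here.

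*Dhh* (chromosome 15 from 98891152 to 98898540) was counted at 14 and 3 reads for control 1 and 2 and at 25 and 109 reads for *Eya1*cKO 1 and 2, or 0.401, 0.0801, 1.11 and 6.21 CPM. Here too both *Eya1*cKO libraries were higher, but the order within the genotype was the opposite of that of *Shh*, with *Eya1*cKO 2 above *Eya1*cKO 1 by 5.62-fold. The log2 change was 3.81 (standard error 1.25, 95% interval 0.97 to 6.64, adjusted *P* = 0.093 by edgeR). It was 2.21 without *Eya1*cKO 2, 4.70 without *Eya1*cKO 1, 3.05 without control 2 and 5.30 without control 1. *Dhh* passed in DESeq2 with an adjusted *P* of 0.034 (range 0.034 to 0.18 over the alternatives that kept every library). Exons of *Rhebl1* on the same strand cover 12.4% of the exonic length of *Dhh* and those of *Gm49442* on the other strand 25.2%, so its reads are uncertain.

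*Ihh*, known for its part in cartilage and gut, was at or under the limit of 3 reads in control 1 and *Eya1*cKO 1, which had 0 and 2 reads. In control 2 and *Eya1*cKO 2 it had 22 and 17 reads, or 0.588 and 0.969 CPM. The genotypes overlapped, and the difference between libraries of a genotype was larger than that between genotypes. The log2 change was 0.63 with a 95% interval of -3.08 to 4.35 (adjusted *P* = 0.84 by edgeR), so the interval covers large changes in either direction. It was -0.31 without control 1, -1.74 without *Eya1*cKO 2 and 6.58 without control 2, where only the control without a read remains.

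Among the genes that receive or restrain the signal, *Hhip* was the one called. *Hhip* (chromosome 8 from 79965851 to 80058006) encodes a membrane protein that binds all 3 ligands and limits their range. Its counts were 200 and 113 reads for control 1 and 2 and 466 and 826 reads for *Eya1*cKO 1 and 2, which is 5.73 and 3.02 CPM against 20.6 and 47.1 CPM. Both *Eya1*cKO libraries exceeded both controls by a wide margin, although they differed from each other 2.28-fold.

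Mean *Hhip* was 4.37 ± 1.92 CPM (SD, n = 2) in controls and 33.9 ± 18.7 CPM (SD, n = 2) in *Eya1*cKO, and the fitted fold was 7.49. Its log2 change of 2.91 (standard error 0.55, 95% interval 1.60 to 4.21) passed with an adjusted *P* of 0.023 in edgeR. Without *Eya1*cKO 2 the log2 change was 2.25 and without *Eya1*cKO 1 it was 3.44. Leaving out control 1 or control 2 ended the call (adjusted *P* = 0.30 and 0.40 by edgeR), with log2 changes of 3.43 and 2.504. With 1 library in a group, the test takes its spread from the other group alone.

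*Ptch1* (chromosome 13 from 63508328 to 63573598) is both the receptor and a target of the pathway, and its level is often used as a readout of signalling. It stood at 219 and 235 CPM in control 1 and 2 and at 270 and 354 CPM in *Eya1*cKO 1 and 2. The *Eya1*cKO libraries were the higher ones, by less than for *Hhip*. The log2 change was 0.45 (standard error 0.13, 95% interval 0.14 to 0.76), and it did not pass in edgeR (adjusted *P* = 0.08). In DESeq2 the adjusted *P* was 0.012, and over the alternatives that kept every library it ranged from 0.012 to 0.17. The log2 change was 0.64 without *Eya1*cKO 1 and 0.25 without *Eya1*cKO 2.

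*Smo* (chromosome 6 from 29735503 to 29761365), whose control in cells is mainly at the protein level, was at 311 and 299 CPM in control 1 and 2 and at 268 and 340 CPM in *Eya1*cKO 1 and 2. The controls lay between the *Eya1*cKO libraries. Its log2 change was -0.01 with a 95% interval of -0.28 to 0.26 (adjusted *P* = 0.96 by edgeR), and its sign turned with library totals alone, in DESeq2 and with control 1 or *Eya1*cKO 1 left out. The log2 change was 0.16 without *Eya1*cKO 1 and -0.19 without *Eya1*cKO 2, in opposite directions.

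**Figure D2:**
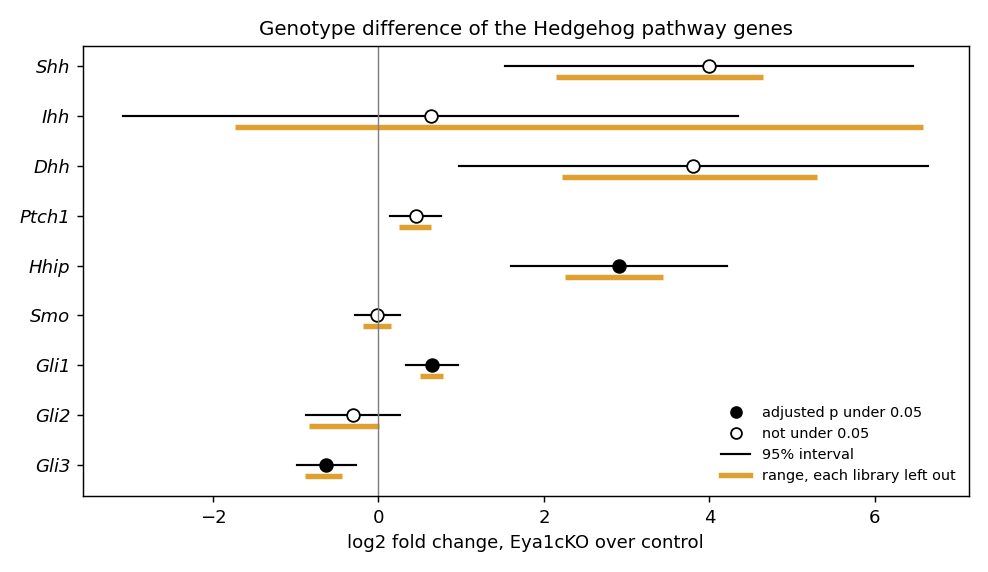
Log2 change (*Eya1*cKO over control) of each Hedgehog pathway gene, with the 95% interval of edgeR's fit (black bar) and the range when each library was left out in turn (orange bar); filled circles have an adjusted *P* under 0.05. *Hhip* at 2.91, *Gli1* at 0.64 and *Gli3* at -0.63 are filled, whereas *Shh* at 4.00 and *Dhh* at 3.81 have larger estimates with wide intervals.

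Of the 3 *Gli* genes, *Gli1* was higher, *Gli3* was lower and *Gli2* was not called. *Gli1* (chromosome 10 from 127329882 to 127341974), an activator whose transcription follows pathway activity, was at 77.8 and 79.8 CPM in control 1 and 2 and at 112 and 136 CPM in *Eya1*cKO 1 and 2. The controls were nearly equal and both *Eya1*cKO libraries were higher. The log2 change was 0.64 (standard error 0.13, 95% interval 0.33 to 0.96, adjusted *P* = 0.03 by edgeR). The call was lost without the low-count filter (adjusted *P* = 0.068 by edgeR), with the legacy method (0.056) and without control 1 or control 2 (0.49 for each), while the log2 change stayed between 0.51 and 0.78 under all alternatives.

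*Gli3* (chromosome 13 from 15463235 to 15730026), the main repressor of the family when the signal is absent, was at 151 and 139 CPM in control 1 and 2 and at 107 and 78.6 CPM in *Eya1*cKO 1 and 2. Both *Eya1*cKO libraries were below both controls. The log2 change was -0.63 (standard error 0.15, 95% interval -0.99 to -0.27, adjusted *P* = 0.048 by edgeR), just inside the threshold. It lost the call with library totals alone (adjusted *P* = 0.061 by edgeR), without the filter (0.095), with the robust method (0.053), with the legacy method (0.093) and without control 1 or control 2 (0.53 and 0.48).

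*Gli2* (chromosome 1 from 118834132 to 119053619), the main activator upstream of *Gli1*, was at 66.1 and 70.5 CPM in control 1 and 2 and at 68.9 and 38.3 CPM in *Eya1*cKO 1 and 2. The first *Eya1*cKO library lay between the controls and only the second was lower. Its log2 change of -0.31 (95% interval -0.88 to 0.26) did not pass (adjusted *P* = 0.43 by edgeR), and it was 0.01 without *Eya1*cKO 2 and -0.84 without *Eya1*cKO 1.

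Per kilobase of exon, *Smo* was the most abundant of the 9 core transcripts, at 54.3 ± 1.46 CPM per kb (SD, n = 2) in controls and 54.1 ± 9.03 in *Eya1*cKO. In the controls *Ptch1* (16.0 ± 0.786), *Gli1* (15.8 ± 0.274) and *Gli3* (15.2 ± 0.88) followed at levels that did not differ beyond their spread, with *Gli2* below them at 9.94 ± 0.454. In *Eya1*cKO the order was *Gli1* at 24.8 ± 3.32 and *Ptch1* at 22.0 ± 4.19, which overlapped, then *Gli3* at 9.68 ± 2.10 and *Gli2* at 7.801 ± 3.15, which overlapped as well. *Hhip* was at 0.482 ± 0.211 CPM per kb in controls and 3.73 ± 2.06 in *Eya1*cKO. Of the ligands, *Shh* had 0.189 ± 0.0113 CPM per kb in controls, *Ihh* 0.0964 ± 0.136 and *Dhh* 0.0547 ± 0.0516, with *Ihh* overlapping both of the others. In *Eya1*cKO the ranges of *Shh* (0.841 to 4.77) and *Dhh* (0.251 to 1.41) overlapped.

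The balance between the *Gli* genes can be read within a library, where no scaling between libraries enters. Control 1 and 2 had 0.514 and 0.572 *Gli1* reads per *Gli3* read, and *Eya1*cKO 1 and 2 had 1.05 and 1.73. The mean difference was 1.31 on the log2 scale, with *Eya1*cKO higher in both libraries. For *Gli1* reads per *Gli2* read the values were 1.18 and 1.13 in the controls and 1.63 and 3.54 in *Eya1*cKO.

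Against *Smo*, *Gli1* had 0.2505 and 0.267 reads per *Smo* read in the controls and 0.418 and 0.399 in *Eya1*cKO. *Ptch1* reads per *Smo* read were 0.705 and 0.785 in the controls and 1.01 and 1.04 in *Eya1*cKO, and *Gli3* reads 0.487 and 0.466 against 0.399 and 0.231. The *Gli2* to *Gli3* ratio overlapped between genotypes, with 0.436 and 0.505 against 0.643 and 0.487. *Gli1* reads per *Ptch1* read were 0.355 and 0.340 in the controls and 0.416 and 0.384 in *Eya1*cKO. A total of 7 ratios were computed, and with 2 libraries against 2 the two-sided exact permutation test cannot give a *P* below 0.333, the value it gave for 6 of them (0.389 after adjustment over the 7 ratios), with 0.667 for *Gli2* to *Gli3*.

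**Figure D3:**
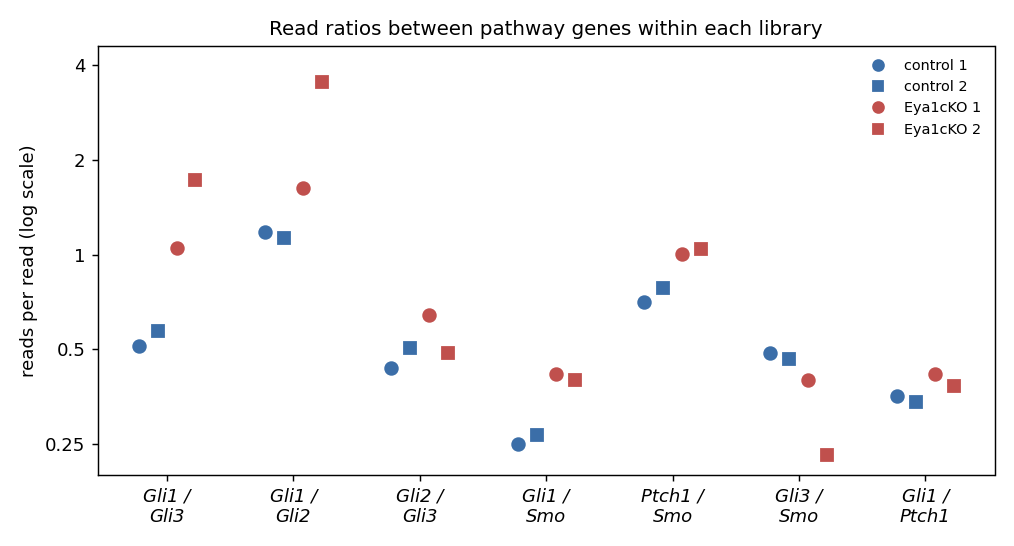
Reads of one pathway gene per read of another within each library, on a log axis, with controls in blue and *Eya1*cKO in red (circle for library 1, square for library 2). The *Gli1* to *Gli3* ratio is 0.514 and 0.572 in the controls and 1.05 and 1.73 in *Eya1*cKO, and the *Gli2* to *Gli3* ratio is the only one in which the genotypes overlap.

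A further 36 genes of the pathway were listed by role, and 35 of them could be tested. Of these, 2 were higher and 7 were lower in *Eya1*cKO, beside 5.15% and 4.41% of all tested genes. Their median log2 change was -0.16. The calls were in 2 of the 4 role groups, and no member of the release or the transduction group passed in edgeR. The list was chosen with earlier results of these data known, so these counts are not independent evidence.

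In the group that acylates and releases the ligands (*Hhat*, *Disp1*, *Scube1*, *Scube2* and *Scube3*), 0 of 5 genes passed in edgeR and 0 in DESeq2. An unadjusted *P* under 0.05 was found for 1 of the 5, beside 28.8% of all tested genes. That gene was *Disp1*, which exports lipid-bearing Hedgehog from the producing cell, with 72.1 and 63.9 CPM in control 1 and 2 and 49.5 and 45.5 CPM in *Eya1*cKO 1 and 2 (log2 change -0.51, adjusted *P* = 0.099 by edgeR). *Scube3* was the steadiest and most abundant in CPM, between 489 and 503 CPM in all 4 libraries, with a 95% interval of -0.15 to 0.16 for its log2 change. *Scube2* rested on 4 to 61 reads per library.

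Among the co-receptors, *Gas1* was lower and *Lrp2* higher in *Eya1*cKO. *Gas1*, a membrane co-receptor that helps Ptch1 bind ligand, went from 259 and 249 CPM in the controls to 141 and 148 CPM in *Eya1*cKO, with a log2 change of -0.82 (standard error 0.09, adjusted *P* = 0.0035 by edgeR). Exons of *Gm48488* on the other strand cover 19.9% of its exonic length. *Lrp2* encodes megalin, an endocytic receptor that binds Shh and is best known in the proximal tubule, and it went from 68.9 and 63.6 CPM to 185 and 152 CPM (log2 change 1.36, standard error 0.14, adjusted *P* = 0.0027 by edgeR).

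The co-receptors *Cdon* and *Boc*, which act in part redundantly with Gas1, had log2 changes of 0.19 (95% interval -0.13 to 0.50) and -0.16 (95% interval -0.43 to 0.10).

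Of the 13 transduction genes, 0 passed in edgeR and 1, *Gsk3b*, in DESeq2, and 5 had an unadjusted *P* under 0.05, beside 28.8% of all tested genes. *Sufu*, which holds Gli proteins in the cytoplasm, had a log2 change of -0.04 (95% interval -0.40 to 0.32), and *Kif7*, the ciliary kinesin of the pathway, one of -0.003 (95% interval -0.46 to 0.45), with exons on the other strand over 20.3% of its exonic length. Of the 5, *Stk36* (log2 change -1.08), *Evc2* (-0.36), *Grk2* (-0.27) and *Gsk3b* were at lower values in *Eya1*cKO and *Csnk1a1* (0.15) at higher values. The nearest to the threshold in edgeR was *Gsk3b*, one of the kinases that mark Gli3 for processing, at 268 and 261 CPM in the controls, against 208 and 153 CPM in *Eya1*cKO (log2 change -0.54, adjusted *P* = 0.055 by edgeR). The catalytic subunits of protein kinase A, *Prkaca* and *Prkacb*, had log2 changes of 0.05 (95% interval -0.18 to 0.27) and 0.04 (95% interval -0.23 to 0.31).

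Genes described as responsive to Hedgehog or Gli in kidney or other tissues held most of the calls, with 1 of 12 tested genes higher, 6 lower and 5 not called, and a median log2 change of -0.39. The 7 calls stand beside 9.56% of all tested genes in edgeR, and DESeq2 called 8 genes of the group beside 14.4% of all tested genes. The group was listed with earlier results of these data known, so its count of calls is not independent evidence. The 6 lower genes were *Bcl2*, *Ccnd1*, *Ccnd2*, *Mycn*, *Pax2* and *Sall1*, which respectively encode an inhibitor of apoptosis, 2 G1 cyclins, a Myc family factor and 2 transcription factors of the nephron progenitors. *Pax2* fell from 613 CPM in each control to 127 and 141 CPM (log2 change -2.20, adjusted *P* = 7.3e-05 by edgeR). *Sall1* fell from 449 and 454 CPM to 162 and 140 CPM (log2 change -1.58, adjusted *P* = 3.7e-04 by edgeR). *Pax2*, *Sall1* and *Ccnd1* are among the genes that the study singled out in these same libraries, so their direction is not independent evidence.

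*Mycn* went from 96.9 and 105 CPM to 35.4 and 59.8 CPM (log2 change -1.12, adjusted *P* = 0.024 by edgeR) and *Bcl2* from 95.8 and 98.4 CPM to 43.9 and 42.1 CPM (log2 change -1.17, adjusted *P* = 0.0052 by edgeR). The cyclins *Ccnd1* and *Ccnd2* had log2 changes of -0.89 (adjusted *P* = 0.0013 by edgeR) and -0.56 (adjusted *P* = 0.041 by edgeR), and exons on the other strand cover 23.4% of the exonic length of *Ccnd1*. The gene that was higher, *Sfrp1*, encodes a secreted Wnt antagonist and went from 129 and 125 CPM to 229 and 243 CPM (log2 change 0.90, standard error 0.09, adjusted *P* = 0.003 by edgeR).

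The forkhead genes of Hedgehog-responsive mesenchyme gave no call in edgeR, and *Foxf1* was called in DESeq2. *Foxf1* was counted at 23 and 71 reads for control 1 and 2 and at 209 and 112 reads for *Eya1*cKO 1 and 2, so that both *Eya1*cKO libraries were higher (log2 change 2.62, 95% interval 0.99 to 4.24, adjusted *P* = 0.061 by edgeR). *Foxl1* was at 16.3 and 18.9 CPM in the controls, against 19.0 and 42.1 CPM in *Eya1*cKO (adjusted *P* = 0.26 by edgeR). *Foxf2* had at most 4 reads in any library and was not tested. Of the genes of the ureteric smooth muscle programme, *Bmp4*, *Tshz3* and *Myocd* had log2 changes of -0.22, 0.44 and 0.61, and their adjusted *P* values by edgeR were 0.56, 0.17 and 0.48.

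**Figure D4:**
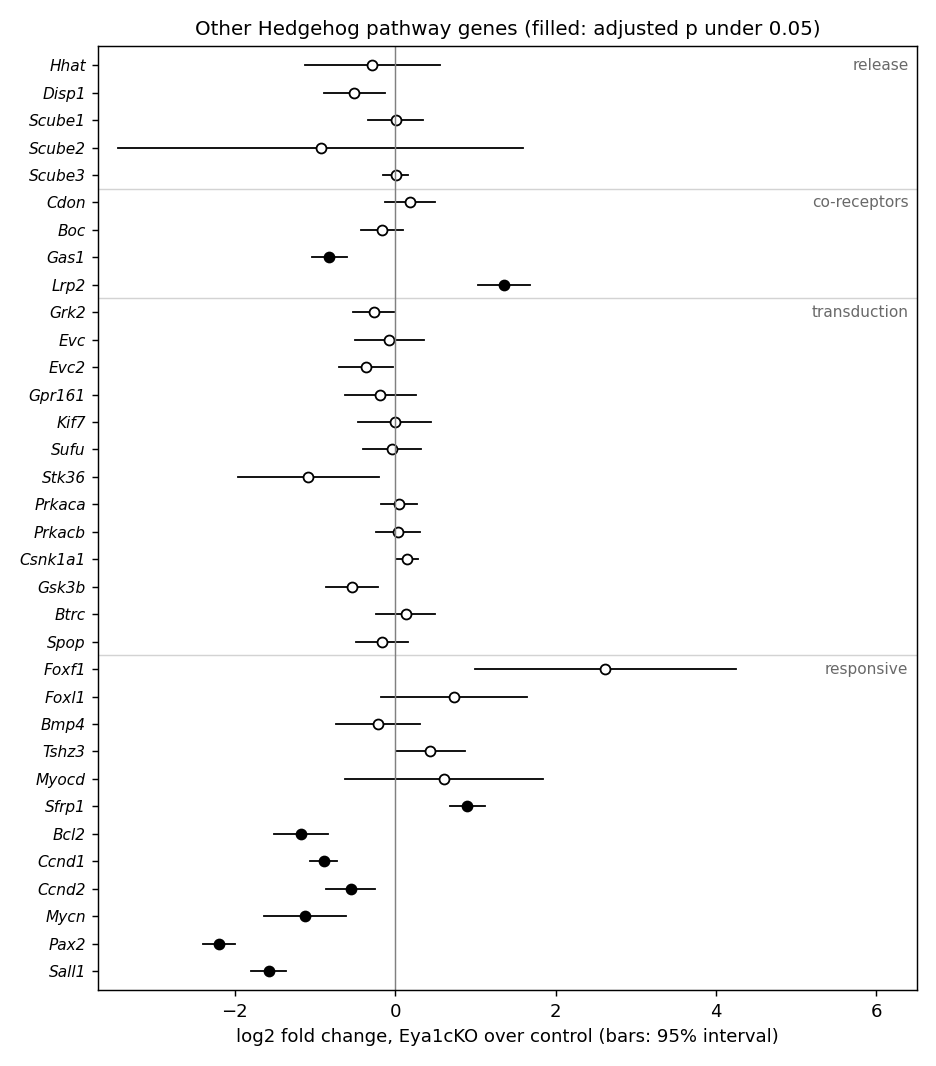
Log2 change (*Eya1*cKO over control) and 95% interval of the other pathway genes that were tested and are reported here, grouped by role from top to bottom; filled circles have an adjusted *P* under 0.05. The filled circles are *Gas1* and *Lrp2* among the co-receptors and *Sfrp1*, *Bcl2*, *Ccnd1*, *Ccnd2*, *Mycn*, *Pax2* and *Sall1* among the responsive genes.

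Markers of other cell types moved with the genotype beside these results. The summed level of 6 adrenal cortex markers was 18.7 and 11.4 CPM in control 1 and 2 and 677 and 653 CPM in *Eya1*cKO 1 and 2, and that of 5 sympathoadrenal markers 2.61 and 2.80 CPM against 320 and 359 CPM. All 11 of these genes were called higher. The adrenal cortex is a known source of Shh, and the adrenal capsule around it expresses *Gli1* and *Ptch1*. Between the *Eya1*cKO libraries, *Shh* differed 5.67-fold, *Hhip* 2.28-fold, *Ptch1* 1.31-fold and *Gli1* 1.21-fold. How these differences relate to the adrenal sums was not tested.

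Renal stroma markers summed to 725 and 723 CPM in the controls, against 951 and 983 CPM in *Eya1*cKO, with *Foxd1*, *Pdgfrb* and *Dcn* called higher, *Tbx18* called lower and *Ntn1* and *Meis1* not called. Smooth muscle markers summed to 23.9 and 25.1 CPM against 42.7 and 42.0 CPM, where *Acta2* was called higher, while *Myh11*, *Tagln* and *Cnn1* were at lower levels in *Eya1*cKO without a call and *Cnn1* had 0 reads in both of its libraries. Endothelial markers summed to 456 and 468 CPM against 771 and 838 CPM, and all 5 were called higher. Podocyte markers summed to 475 and 489 CPM against 2152 and 2172 CPM, and all 5 were called higher.

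Ureteric bud markers, those of the epithelium that makes Shh in the kidney, summed to 212 and 225 CPM in the controls, against 120 and 106 CPM in *Eya1*cKO, with *Ret* and *Calb1* called lower and *Wnt11*, *Wnt9b*, *Gata3* and *Cdh1* not called. Nephron progenitor markers went from 674 and 678 CPM to 102 and 70.8 CPM, and all 5 (*Six2*, *Cited1*, *Meox1*, *Osr1* and *Uncx*) were called lower. The study singled out all 5 in these libraries, so their direction is not independent evidence either. Markers of nascent tubules summed to 809 and 815 CPM against 465 and 545 CPM, with *Lhx1*, *Jag1* and *Wnt4* called lower and *Pax8* and *Cdh6* not called. Schwann cell markers summed to 27.5 and 26.0 CPM in the controls, against 32.1 and 28.6 CPM in *Eya1*cKO, where *Sox10*, a defining marker, was called higher from 0 and 5 reads to 83 and 75 reads, and *Foxd3* had at most 7 reads. Immune markers overlapped between genotypes at 71.1 to 80.2 CPM. The part of these cell types in the differences of *Shh*, *Dhh*, *Hhip*, *Ptch1*, *Gli1* and *Gli3* was not tested.

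**Figure D5:**
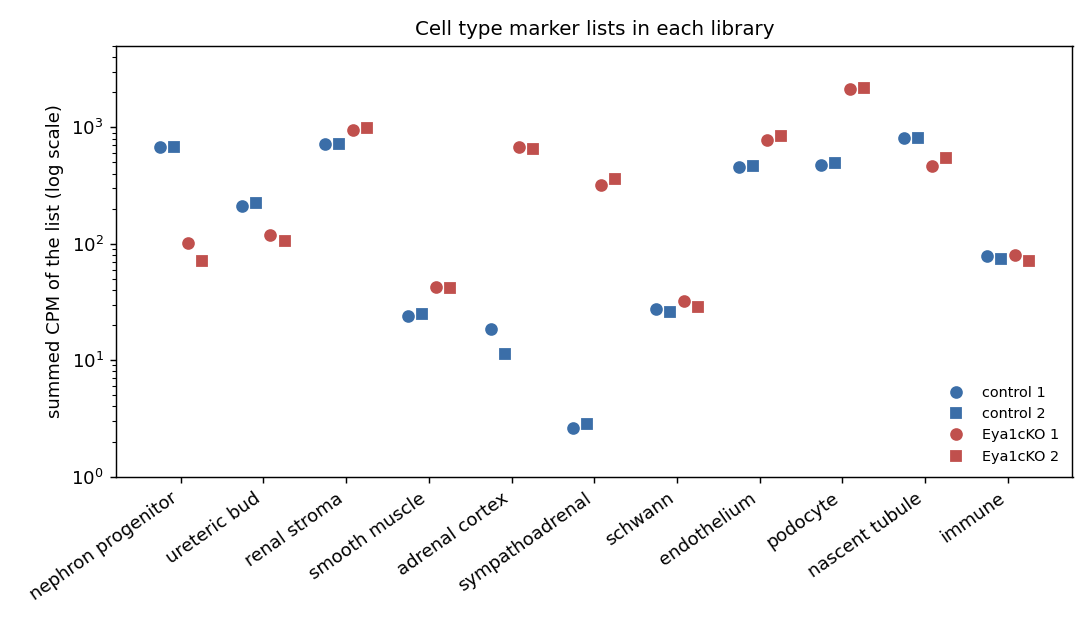
Summed CPM, on a log axis, of marker lists of 11 cell types in control 1 and 2 (blue) and *Eya1*cKO 1 and 2 (red). The lists were chosen with earlier results of these data known. Adrenal cortex and sympathoadrenal markers are higher in *Eya1*cKO by 44.2-fold and 126-fold, whereas ureteric bud markers are at 106 and 120 CPM against 212 and 225 CPM in the controls.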

How the data were processed

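mRNA of sorted cells, purified with magnetic beads, was sequenced as random-primed, strand-specific single-end libraries. The authors mapped reads to mm10 with HISAT2 and counted them with HTSeq-count on Ensembl release 90; the deposited values are raw counts per gene, 1 file per library. Tool versions and the strand setting are not given in the sources used here. The HTSeq summary lines, 31.8% to 46.1% of recorded reads, were left out of library sizes. Kidneys per genotype number 6, from 4 females, in the labels, and more in the methods.

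Symbols, coordinates, exonic lengths and exon overlaps came from GENCODE M21, which shares the build GRCm38 with mm10 but is a later annotation. Symbols matched 52403 of 52636 genes. Counts were filtered with filterByExpr (minimum count 10), scaled by TMM and tested in edgeR 4.0.16 under R 4.3.3 (glmQLFit with legacy = FALSE, glmQLFTest, Benjamini-Hochberg). Standard errors were obtained by dividing the size of each log2 fold change by the root of its F statistic, and 95% intervals are unadjusted. DESeq2 1.42.0 was an alternative, besides other scalings, filters, dispersion methods, the leaving out of each library and a block on replicate number. The scripts were tested on simulated data.

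The pathway genes, role lists and marker lists were chosen with earlier results of these data known. Named genes are the 9 core genes, the listed pathway genes past the threshold (others as values within their group), *Eya1*, the markers, and for each called core gene the 3 tested genes with the nearest expression profile. The values of 1 listed pathway gene, which did not pass and is counted in the totals, are not reported here.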

Additional observations from a re-analysis of the deposited data

How the results depend on the processing

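The count of all genes called, 1820, became 1055 without the low-count filter, 2734 in DESeq2's Wald test, 1096 with the legacy method and 621 with a replicate block. For the 9 Hedgehog genes the count of 3 became 1, 6, 1 and 0 under the same 4 settings, and it was 2 to 4 under the other scalings, filter and robust method, with *Shh* the addition when at least 10 reads were required in every library. Only *Hhip* was called without the filter and with the legacy method, and DESeq2 added *Shh*, *Dhh* and *Ptch1*. With each library left out in turn, all genes called ranged from 34 to 7882, the Hedgehog genes from 0 to 7 and the other pathway genes from 2 to 20, against 9. The low ends come without a control, when the spread rests on the *Eya1*cKO pair, and the high ends without an *Eya1*cKO library; the lone library is then assumed to vary like the other group. The replicate numbers did not pair the libraries (correlation of deviations 0.006 over 19041 genes). The replicate block called 0 of the 9 genes (adjusted *P* in edgeR 0.056 for *Hhip*, 0.091 for *Gli1* and 0.09 for *Gli3*) and 7 of the other pathway genes. With the block the log2 changes were 2.94 for *Hhip*, 0.65 for *Gli1* and -0.65 for *Gli3*, against 2.91, 0.64 and -0.63 without it. The genotypes were apart for 6 genes under each scaling. Signs turned for *Smo* (0.025 with library totals alone, 0.0061 in DESeq2, 0.016 without control 1 and 0.16 without *Eya1*cKO 1), *Ihh* (-0.31 without control 1 and -1.74 without *Eya1*cKO 2) and *Gli2* (0.0085 without *Eya1*cKO 2); the cause was not tested. Without 1 library, log2 changes ranged from -1.74 to 6.58 for *Ihh*, -0.19 to 0.16 for *Smo* and -0.84 to 0.01 for *Gli2*. Counting error is largest for *Ihh* and *Dhh*, with as few as 0 and 3 reads in a library, but the *Eya1*cKO libraries of *Shh*, *Dhh* and *Ihh* differed beyond their counting intervals.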

Other observations

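For each called Hedgehog gene, the 3 tested genes with the nearest profile over the 4 libraries were taken by the Euclidean distance between centred log2 CPM (prior count 2), with 19040 genes compared. With only 4 points, the likeness is a description. Nearest to *Gli1* were *Rasip1* (distance 0.019), *Adgrf5* (0.0266) and *Nipal3* (0.0302), against a median distance of 1.15. *Rasip1* and *Adgrf5* are known from endothelium, and *Adgrf5* was at 68.8 and 71.8 CPM in control 1 and 2 and at 100 and 119 CPM in *Eya1*cKO 1 and 2 (adjusted *P* = 0.033, edgeR).

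Nearest to *Gli3* were *Lrrc75b* (0.0283), *Pla2g12a* (0.0297) and *Nup160* (0.0509), a nuclear pore component, none of which passed the test. Nearest to *Hhip* were *Nr1h4* (0.175), which encodes the bile acid receptor FXR, *Osgin1* (0.214) and *Ido1* (0.319), against a median distance of 3.26. In control 1 and 2, *Nr1h4* was at only 0.315 and 0.160 CPM, and *Ido1*, at 0.0859 and 0 CPM, was at or under the limit of 3 reads. Neither passed the test (adjusted *P* = 0.074 and 0.10, edgeR). *Osgin1* was at 1.23 and 0.534 CPM in control 1 and 2 and at 4.91 and 10.3 CPM in *Eya1*cKO 1 and 2, the same order of the 4 libraries as *Hhip* (adjusted *P* = 0.058, edgeR).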
